A study of Rattus norvegicus with 54 samples.

Results

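The genes of the sarcoplasmic reticulum that release, store and recapture calcium in muscle, Ryr1, Casq2, Hrc, Atp2a1, Atp2a2 and Sln, were followed in the gubernaculum and the testis of rat fetuses. The 6 genes were found by symbol in the lists of probe sets that the authors deposited, in which 3008 of 3922 probe sets carried 1 symbol and named 2844 genes. They were read through 8 of the 15923 probe sets of the array, 1 each for Ryr1 (1390355_at), Hrc (1377499_a_at), Atp2a1 (1368108_at) and Sln (1374391_at), and 2 each for Casq2 (1368988_at and 1387401_at) and Atp2a2 (1369065_a_at and 1398862_at). All 8 probe sets were in the authors' list for the gubernaculum, 5 were also in their list for development in the wild type, and 0 were in their testis list. The authors made the first of these lists with tests between the strains at GD18 and at GD20 left (GD, gestational day) and with an analysis of variance, and the second with a test between GD18 and GD20 left in LE/wt. The direction of a member in those comparisons is therefore not independent evidence.

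LE/orl is a rat strain with cryptorchidism, in which the testis does not descend, and LE/wt is the wild-type strain it was set against. Left gubernacula of LE/orl males and of LE/wt males were measured at GD18, GD19 and GD20, with 4 fetuses in each group. Right gubernacula were added at GD20 from 3 of the fetuses of each strain, so that a left and a right array of the same replicate letter share a fetus. LE/wt males at GD18 were also set against 4 LE/wt females of that day, in which the gubernacula of both sides of a fetus were combined before RNA isolation. Left testes came from 5 LE/orl and 5 LE/wt fetuses at GD17 and from as many at GD19. No fetus was treated, the labels name no mutation for LE/orl, and each array held RNA of 1 fetus. Values are log2 GCRMA expression levels, in which 1 unit is a doubling. A level belongs to its own probe set and was not set against the level of another.

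The sarcoplasmic reticulum is the calcium store of striated muscle. Calcium leaves it through the ryanodine receptor channel, binds to troponin on the thin filament and starts contraction, and is pumped back by calcium ATPases of the SERCA family. Inside the store calcium is held by calsequestrin and by the histidine-rich calcium-binding protein, and in the membrane the small protein sarcolipin binds the pump and lowers its efficiency. In the rat, striated muscle cells differentiate in the outer layer of the male gubernaculum before birth and later form the cremaster muscle around the testis.

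Of 40 genes listed as markers of striated muscle fibres, 24 were named in the authors' lists, and their summed linear intensity was 47126 to 48253 in LE/orl and 45315 to 64178 in LE/wt at GD18. It was 74863 to 111702 in LE/orl and 97117 to 131510 in LE/wt at GD20 left, so that gubernacula of both strains held muscle RNA. In testis the same sum was 1784 to 2938 in LE/orl and 1904 to 4086 in LE/wt, apart from 1 LE/wt testis at GD19, replicate D, with 7261. The label testis could hardly be checked, since 1 of 10 listed markers of Leydig and Sertoli cells was named. The arrays differed in RNA quality with strain. An index of the 5′ minus the 3′ log2 signal of the beta-actin and GAPDH controls was -7.23 to -6.06 on 13 of 15 LE/orl gubernaculum arrays (the weak 5′ arrays), against -4.73 to -3.46 on the LE/wt arrays. Of the remaining LE/orl arrays, replicate A of GD18 had -4.16 and replicate D of GD19 had -4.32, and the authors left both out of their group means. Each array was made from a whole gubernaculum or testis, so fewer cells of a type and less RNA per cell cannot be told apart.

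The promoters of Casq2, Atp2a1 and Atp2a2 follow, because the first held the motif of a muscle factor and the pump genes differed between the strains in opposite directions. Each window runs from 250 bases before to 50 bases after the start of the gene, is written 5′ to 3′ on the strand of the gene, and comes from RefSeq on build GRCr8. Casq2 lies at chr2:192214306-192214605 on the plus strand, Atp2a1 at chr1:190475361-190475660 on the minus strand and Atp2a2 at chr12:39733269-39733568 on the plus strand. Capitals mark matches on either strand to the E-box CANNTG, bound by myogenic basic helix-loop-helix factors, or to the MEF2 motif.
Casq2: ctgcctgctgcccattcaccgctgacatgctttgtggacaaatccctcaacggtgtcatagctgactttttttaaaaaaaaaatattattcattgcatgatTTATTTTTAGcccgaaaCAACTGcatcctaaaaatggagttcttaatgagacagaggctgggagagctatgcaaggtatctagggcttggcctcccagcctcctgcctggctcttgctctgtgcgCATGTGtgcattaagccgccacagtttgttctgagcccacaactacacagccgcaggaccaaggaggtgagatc
Atp2a1: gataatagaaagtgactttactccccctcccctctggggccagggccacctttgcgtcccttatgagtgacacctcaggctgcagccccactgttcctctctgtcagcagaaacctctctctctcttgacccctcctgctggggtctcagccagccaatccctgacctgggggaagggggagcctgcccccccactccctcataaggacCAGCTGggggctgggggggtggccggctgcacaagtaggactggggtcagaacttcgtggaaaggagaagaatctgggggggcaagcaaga
Atp2a2: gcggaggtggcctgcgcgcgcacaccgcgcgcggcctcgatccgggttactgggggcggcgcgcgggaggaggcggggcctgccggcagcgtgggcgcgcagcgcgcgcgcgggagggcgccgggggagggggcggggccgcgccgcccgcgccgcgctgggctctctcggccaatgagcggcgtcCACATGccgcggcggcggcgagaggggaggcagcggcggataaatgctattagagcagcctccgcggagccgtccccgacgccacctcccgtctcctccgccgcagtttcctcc
The Casq2 window held a MEF2 match 149 bases before the start and E-boxes 132 and 24 bases before it, and no match overlapped another. Atp2a1 held 1 E-box 41 bases before its start, and Atp2a2 held 1 E-box 64 bases before its start. Ryr1 also held 1 E-box, and the Hrc window held none of these letters. An E-box was found in 72.1% of 33469 promoters of this length and a MEF2 match in 3.29%, so the E-boxes are common and none of these matches is a shown binding site. A CArG box, the motif of serum response factor, was found in 1.64% of these promoters and in none of the 5 windows. Sln was not among the promoters used here.

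All 6 genes were detected in the gubernaculum, with each of the 8 probe sets at a log2 level of 5 or more in 34 of 34 arrays. Over development all 6 rose in LE/orl, and 5 of 6 rose in LE/wt, where Sln was the gene not called. Between the strains Sln was called lower in LE/orl at every stage. Atp2a1 was called lower at GD19 and GD20, and its GD18 difference of -0.62 was not called. Atp2a2 was higher in LE/orl through at least 1 of its probe sets, while most differences of Casq2 and Hrc did not pass the test. The plot of levels in every gubernaculum array shows these patterns.

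**Figure D1:**
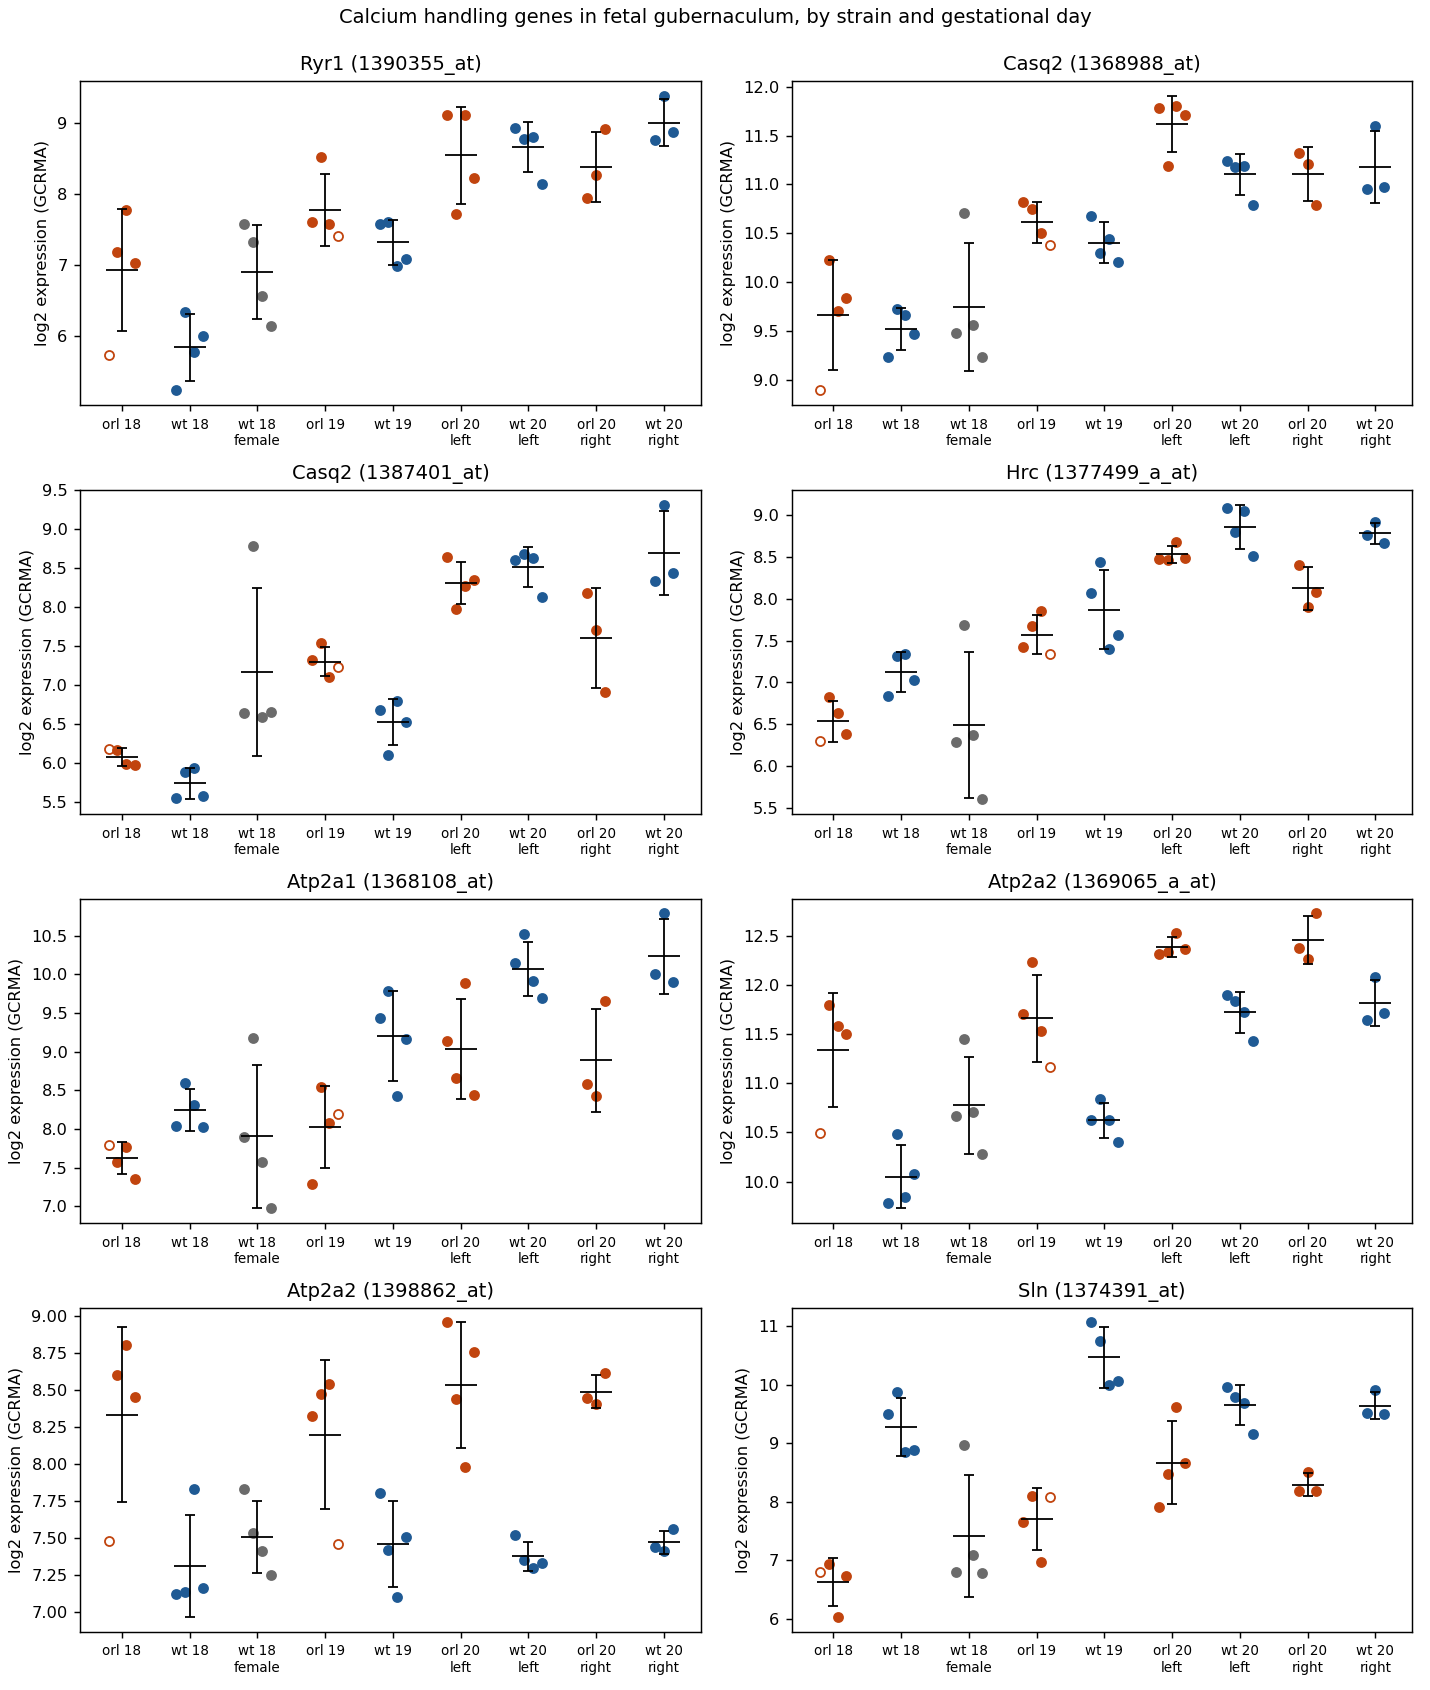
Levels of the 8 probe sets in every gubernaculum array, as log2 GCRMA values on a separate axis for each probe set. Points are arrays, in orange for LE/orl, blue for LE/wt males and grey for LE/wt females, bars give the mean and SD, and open points are LE/orl replicate A of GD18 and replicate D of GD19. Sln lies at 6.03 to 6.93 in LE/orl and at 8.85 to 9.87 in LE/wt at GD18, and the open Atp2a2 and Ryr1 points of GD18 lie below the other LE/orl points of that day.

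Ryr1 encodes the skeletal muscle calcium release channel, and its gene lies at chr1:93420078-93551305 of GRCr8. In LE/orl left gubernacula its log2 level was 5.74, 7.19, 7.77 and 7.03 at GD18, against 5.23, 6.34, 5.78 and 6.00 in LE/wt. The level at GD19 was 7.61, 8.53, 7.57 and 7.41 in LE/orl, against 7.58, 7.61, 6.99 and 7.09 in LE/wt. At GD20 left it was 9.11, 7.72, 9.11 and 8.22 in LE/orl, against 8.92, 8.77, 8.81 and 8.14 in LE/wt. Ryr1 was thus high at GD20 in both strains, and the strains overlapped on each day. With limma the GD18 difference was 1.09 ± 0.37 (SE, n = 4 each), or 2.13-fold higher in LE/orl, with an adjusted p of 0.0162. The call was lost without LE/wt replicate A (adjusted p = 0.0675), without LE/orl replicate C (adjusted p = 0.0892) and in a fit of the compared groups alone (adjusted p = 0.0551). The differences at GD19, GD20 left and GD20 right, 0.46, -0.12 and -0.63, did not pass the test, and their 95% intervals reached from -1.51 to 1.23.

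The Ryr1 difference moved with the RNA index. Averaged over GD18 and GD19 it was 0.78 ± 0.26 (SE) with all arrays, with an adjusted p of 0.0116. With the weak 5′ arrays of LE/orl alone (n = 3 a day) it was 1.04 ± 0.25 with an adjusted p of 0.000668, and with the remaining LE/orl arrays alone (n = 1 a day) it was -0.005 ± 0.37 with an adjusted p of 0.994, where the spread of a lone array is taken from the other groups. With the index as a covariate the GD18 difference was 0.30 with an adjusted p of 0.67. The part of RNA quality in the difference was not tested further. Averaged over the 3 left stages Ryr1 differed by 0.48 and narrowly missed the threshold (adjusted p = 0.0511), and it was called in 8 of the fits that left out 1 array, with adjusted p-values of 0.00727 (without LE/orl GD18 replicate A) to 0.0481. It was also called with a minimum level of 7, array weights, trended and robust eBayes, quantile normalization, the replicate block or both of the authors' omitted arrays left out (0.00515 to 0.0492), and with the index as a covariate it was -0.38 and not called (0.542). The strain difference at GD20 left minus that at GD18 was -1.21 for Ryr1 (95% interval -2.29 to -0.13). In the F test of a change over GD18, GD19 and GD20 left Ryr1 was not called (adjusted p = 0.205). It was called in that test without LE/orl GD18 replicate A (-1.61, adjusted p = 0.0371) and with array weights (-1.78, adjusted p = 0.0022).

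Casq2 encodes calsequestrin 2, the cardiac and slow muscle form of the protein that binds calcium inside the store, at chr2:192214556-192270821. Probe set 1368988_at had log2 levels of 8.89, 10.23, 9.71 and 9.84 in LE/orl at GD18, against 9.24, 9.72, 9.66 and 9.46 in LE/wt. At GD19 it stood at 10.82, 10.74, 10.50 and 10.38 in LE/orl, against 10.68, 10.29, 10.44 and 10.20 in LE/wt. At GD20 left its levels were 11.78, 11.19, 11.80 and 11.71 in LE/orl, against 11.24, 11.18, 11.19 and 10.79 in LE/wt. The strains overlapped on each day, and the differences of 0.15, 0.21 and 0.52 did not pass the test in limma, with 95% intervals of -0.38 to 0.67, -0.32 to 0.73 and -0.01 to 1.04. At GD20 right the difference was -0.07 with an interval of -0.68 to 0.54. The mean over the 3 left stages was 0.29 (adjusted p = 0.0854), and it was called without LE/orl GD18 replicate A (0.38, adjusted p = 0.017) or LE/orl GD20 left replicate B (0.34, adjusted p = 0.0494), with array weights (0.00815), after quantile normalization (0.0467), with the compared groups alone (0.0492) and without both LE/orl arrays that the authors left out (0.0126). The GD20 left difference was called after quantile normalization (0.71, adjusted p = 0.0289) and with the compared groups alone (0.0366).

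The second Casq2 probe set, 1387401_at, averaged 6.07 ± 0.12 in LE/orl and 5.73 ± 0.20 in LE/wt at GD18 (SD, n = 4 each), a difference that was not called although the groups did not overlap (adjusted p = 0.402). At GD19 it was higher in LE/orl, with 7.32, 7.54, 7.10 and 7.23 against 6.67, 6.10, 6.79 and 6.52 in LE/wt, a difference of 0.78 with an adjusted p of 0.048. That call was lost in 7 of the 8 fits that left out an array of these groups, with adjusted p-values of 0.0553 to 0.137. At GD20 right it was lower in LE/orl, with 8.18, 7.70 and 6.91 against 8.33, 9.32 and 8.44 in LE/wt (n = 3 each). The difference was -1.10 with an adjusted p of 0.023 and was lost without LE/wt right replicate B (adjusted p = 0.143) or LE/orl right replicate C (adjusted p = 0.151). The 2 Casq2 probe sets differed in which strain contrasts were called.

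Hrc encodes the histidine-rich calcium-binding protein of the same compartment, at chr1:104949750-104953475. At GD18 its log2 level was 6.30, 6.83, 6.64 and 6.38 in LE/orl, against 6.83, 7.31, 7.34 and 7.03 in LE/wt. The groups met at 6.83 without overlapping, and the difference of -0.59 ± 0.27 (SE) missed the threshold (adjusted p = 0.0678), which it passed with array weights (0.0292), with the replicate letter as a block (0.0447) and with the compared groups alone (0.0262). At GD19 Hrc averaged 7.57 ± 0.23 in LE/orl and 7.87 ± 0.47 in LE/wt, and at GD20 left 8.53 ± 0.10 in LE/orl and 8.86 ± 0.27 in LE/wt (SD, n = 4 each). Hrc was lower in LE/orl on average over the 3 left stages, by a difference of -0.41 with an adjusted p of 0.0233, or 0.0523 without LE/wt GD19 replicate B. Without both LE/orl arrays that the authors left out it was -0.35 with an adjusted p of 0.0571, and with the index as a covariate -0.50 with an adjusted p of 0.286. At GD20 right the difference was -0.65 and was not called, but was with array weights (adjusted p = 0.0166) and with the compared groups alone (0.0297).

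The pump of fast-twitch fibres, SERCA1, is encoded by Atp2a1 at chr1:190457198-190475410. Its log2 level at GD18 was 7.80, 7.58, 7.76 and 7.35 in LE/orl, against 8.03, 8.60, 8.31 and 8.03 in LE/wt. At GD19 it measured 7.29, 8.54, 8.07 and 8.19 in LE/orl, against 9.43, 9.78, 8.42 and 9.16 in LE/wt. All LE/orl arrays lay below all LE/wt arrays at GD18, and at GD19 1 LE/orl array exceeded the lowest LE/wt array. At GD20 left the values were 9.14, 8.65, 9.89 and 8.44 in LE/orl, against 10.14, 10.52, 9.91 and 9.70 in LE/wt. At GD20 right they were 8.58, 8.43 and 9.65 in LE/orl, against 10.00, 10.79 and 9.90 in LE/wt. The right groups did not overlap, and on the left only LE/orl replicate C reached into the LE/wt range.

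Atp2a1 was 2.26-fold lower in LE/orl at GD19, a limma difference of -1.18 ± 0.37 (SE) with an adjusted p of 0.00988. At GD20 left the difference was -1.04 ± 0.37 with an adjusted p of 0.0241, and at GD20 right -1.34 ± 0.43 with an adjusted p of 0.0156. The GD18 difference of -0.62 ± 0.37 was not called (adjusted p = 0.169), but was with array weights (-0.72, adjusted p = 0.0418) and in a fit of the compared groups alone (adjusted p = 0.0218). Each call from GD19 on was lost without some single array: at GD19 without LE/orl replicate A (adjusted p = 0.0515), at GD20 left without LE/wt replicate B or LE/orl replicate B or D (0.0792, 0.0712 and 0.09), and at GD20 right without LE/wt replicate B or LE/orl replicate A or B (0.0898, 0.0618 and 0.0768). Averaged over the 3 left stages Atp2a1 was lower by a difference of -0.94 ± 0.22 with an adjusted p of 0.000349. Over GD18 and GD19 the difference was -0.90 with all arrays, -0.96 with the weak 5′ arrays of LE/orl alone, and -0.73 with the remaining LE/orl arrays alone, where it was not called (adjusted p = 0.18). With the index as a covariate Atp2a1 was called at no stage, with differences of -0.95 at GD19 (adjusted p = 0.177), -0.77 at GD20 left (0.709), -1.07 at GD20 right (0.785) and -0.71 in the mean over the 3 left stages (0.266). No LE/orl array of GD20 had an index near that of LE/wt, so the covariate fit cannot separate strain from index there. With it 46 of all 8872 probe sets were called at GD20 left and 41 at GD20 right.

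SERCA2, the pump of slow-twitch fibres and heart that also serves the endoplasmic reticulum of most cells, is encoded by Atp2a2 at chr12:39733519-39782942. Probe set 1369065_a_at had log2 levels of 10.49, 11.79, 11.58 and 11.50 in LE/orl at GD18, against 9.78, 10.49, 9.85 and 10.08 in LE/wt. At GD19 the levels were 11.70, 12.23, 11.53 and 11.17 in LE/orl, against 10.62, 10.84, 10.62 and 10.40 in LE/wt. At GD20 left they were 12.31, 12.33, 12.53 and 12.37 in LE/orl, against 11.90, 11.83, 11.72 and 11.43 in LE/wt. Every LE/orl array exceeded every LE/wt array of its day, and LE/orl GD18 replicate A was the lowest of its strain. The limma differences were 1.29 ± 0.25 at GD18 (2.45-fold higher, adjusted p = 8.47e-05), 1.04 ± 0.25 at GD19 (adjusted p = 0.000887) and 0.66 ± 0.25 at GD20 left (adjusted p = 0.0274). The last of these was lost without LE/wt replicate C or D (adjusted p = 0.0502 and 0.0861) or without LE/orl replicate C (adjusted p = 0.0621). On the right at GD20 Atp2a2 averaged 12.45 ± 0.24 in LE/orl and 11.81 ± 0.23 in LE/wt (SD, n = 3 each), a difference of 0.64 that was not called (adjusted p = 0.0743). It was called with array weights, after quantile normalization, with the replicate letter as a block, with the compared groups alone and without both arrays the authors left out (adjusted p = 0.0064 to 0.0417).

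The second Atp2a2 probe set, 1398862_at, was at 7.48, 8.60, 8.80 and 8.45 in LE/orl at GD18, against 7.12, 7.14, 7.83 and 7.17 in LE/wt. It was at 8.32, 8.47, 8.54 and 7.46 in LE/orl at GD19, against 7.81, 7.42, 7.10 and 7.51 in LE/wt. LE/orl replicate A of GD18 and replicate D of GD19 lay within the LE/wt range, and the other LE/orl arrays lay above it. The differences were 1.02 at GD18 (adjusted p = 0.00116), 0.74 at GD19 (0.0141), 1.15 at GD20 left (0.000487) and 1.02 at GD20 right (0.00667). The GD19 call was lost without LE/wt replicate C (adjusted p = 0.0542) or LE/orl replicate C (adjusted p = 0.0561), and in a fit of the compared groups alone (adjusted p = 0.0552).

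Both Atp2a2 probe sets moved with the RNA index. Averaged over GD18 and GD19 the difference of 1369065_a_at was 1.16 with all arrays, 1.39 ± 0.15 with the weak 5′ arrays of LE/orl alone (adjusted p = 5.47e-09), and 0.49 ± 0.22 with the remaining LE/orl arrays alone (adjusted p = 0.0737). For 1398862_at these differences were 0.88, 1.14 ± 0.14 and 0.08 ± 0.22, with an adjusted p of 0.781 for the last. With the index as a covariate neither probe set was called on any day, and 1398862_at at GD19 and 1369065_a_at at GD20 left had differences of -0.11 and -0.02. The part of RNA quality in the Atp2a2 differences was not tested further. At GD20 no LE/orl array had an index near that of LE/wt, so strain and index cannot be told apart there.

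Sln encodes sarcolipin, the inhibitor of SERCA pumps, at chr8:63117577-63144290, and had the strain differences of largest size among the 6 genes at GD18 and GD19. Its log2 level at GD18 was 6.81, 6.93, 6.03 and 6.74 in LE/orl, against 9.50, 9.87, 8.85 and 8.89 in LE/wt. At GD19 the level was 7.66, 8.11, 6.97 and 8.09 in LE/orl, against 11.07, 10.74, 10.00 and 10.07 in LE/wt. The strains were far apart on both days, with the highest LE/orl array at 6.93 and 8.11 and the lowest LE/wt array at 8.85 and 10.00. At GD20 left Sln was at 7.91, 8.48, 9.62 and 8.67 in LE/orl, against 9.96, 9.80, 9.70 and 9.16 in LE/wt, and LE/orl replicate C lay within the LE/wt range. At GD20 right it was at 8.18, 8.52 and 8.18 in LE/orl, against 9.52, 9.92 and 9.50 in LE/wt, with no overlap.

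Sln was 6.26-fold lower in LE/orl at GD18, a limma difference of -2.65 ± 0.39 (SE, n = 4 each) with an adjusted p of 2.77e-06. At GD19 it was 6.79-fold lower, a difference of -2.76 ± 0.39 with an adjusted p of 1.44e-06. At GD20 the difference was -0.98 ± 0.39 on the left (adjusted p = 0.0372) and -1.35 ± 0.45 on the right (adjusted p = 0.0178). The left call was lost without any of 6 single arrays, LE/wt replicates A, B and C and LE/orl replicates A, B and D (adjusted p = 0.0625 to 0.147), with no minimum signal (0.0603) and after quantile normalization (0.0761). The right call was lost without LE/wt replicate B (0.0664) or LE/orl replicate A (0.0508). Sln was the single gene among the 6 whose strain difference changed with day in the F test over GD18, GD19 and GD20 left, with a GD20 minus GD18 change of 1.66 ± 0.55 and an adjusted p of 0.021. Of all probe sets tested 26.7% were called in that test, and of the listed probe sets with 1 symbol 40.7%. The call was lost without LE/wt GD20 left replicate D (1.50, adjusted p = 0.0587) or LE/orl GD20 left replicate C (1.35, adjusted p = 0.0771).

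At GD18 and GD19 the Sln difference held at both levels of the index. Averaged over these days it was -2.70 with all arrays, -2.80 ± 0.30 with the weak 5′ arrays of LE/orl alone (adjusted p = 3.29e-09) and -2.42 ± 0.44 with the remaining LE/orl arrays alone (n = 1 a day, adjusted p = 0.000123). With the index as a covariate the differences were -2.03 at GD18 (adjusted p = 0.00363) and -2.11 at GD19 (adjusted p = 0.0031). At GD20 they were -0.24 on the left and -0.58 on the right with the covariate, with adjusted p-values of 0.94 and 0.928. Strain and index cannot be told apart at GD20, so these values do not decide whether Sln differed there. The plot of levels against the index shows this contrast between Sln and the probe sets of Atp2a2 and Ryr1.

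**Figure D2:**
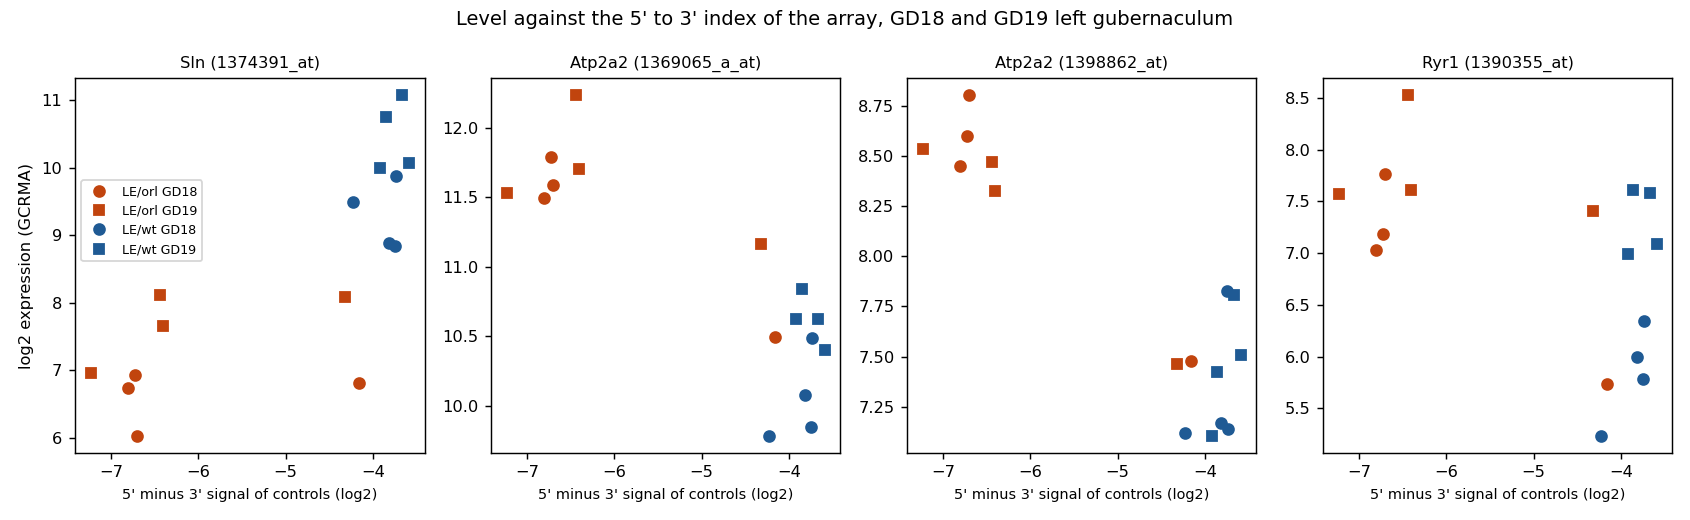
Log2 levels of Sln, both Atp2a2 probe sets and Ryr1 against the 5′ minus 3′ log2 signal of the control probe sets, for each left gubernaculum array of GD18 (circles) and GD19 (squares), in orange for LE/orl and blue for LE/wt. The LE/orl arrays at -4.16 and -4.32 lie with the other LE/orl arrays for Sln, at 6.81 and 8.09, and within the LE/wt range for Atp2a2 1398862_at, at 7.48 and 7.46.

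Counted by gene, with the probe set of the highest mean standing for a gene, 3 of 6 members were called between the strains at GD18 (Ryr1 and Atp2a2 higher, Sln lower), against 51.3% of the 8872 probe sets tested and 76.1% of the listed probe sets with 1 symbol. At GD19 3 of 6 were called (Atp2a2 higher, Atp2a1 and Sln lower), against 52.5% of all and 75.9% of the listed probe sets. At GD20 left the same count and directions stood against 47% and 63.7%, and at GD20 right 2 of 6 were called (Atp2a1 and Sln lower), against 38.4% and 55.5%. In the mean over the 3 left stages 4 of 6 were called (Atp2a2 higher, Hrc, Atp2a1 and Sln lower), against 68.5% of all and 85.9% of the listed probe sets. In the mean over GD18 and GD19 5 of 6 were called, with Casq2 not called, against 65.5% and 84.7%. Called higher and lower in LE/orl were 27.2% and 24.1% of all probe sets at GD18, 26.6% and 25.9% at GD19, 20.1% and 26.9% at GD20 left, and 18.1% and 20.3% at GD20 right. In each of these comparisons the share of members called lay below that of the listed probe sets, from which the members come, so the number of members called is not a result about these genes. The median difference of the 6 genes was -0.22 at GD18, -0.05 at GD19, -0.22 at GD20 left and -0.64 at GD20 right, and that of all probe sets was 0.06, 0.02, -0.09 and -0.01.

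**Figure D3:**
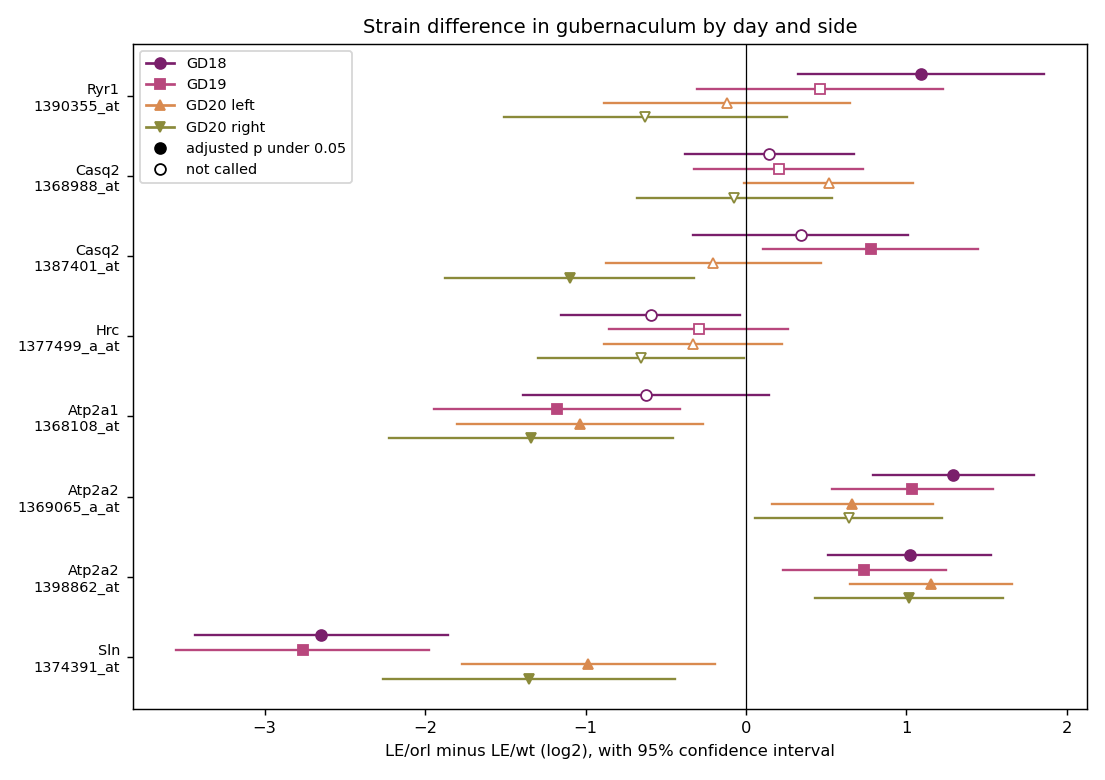
LE/orl minus LE/wt difference in log2 level for each of the 8 probe sets at GD18, GD19, GD20 left and GD20 right, with its 95% confidence interval from limma. Filled symbols have an adjusted p under 0.05. Sln lies at -2.65 and -2.76 on the first days and at -0.98 and -1.35 at GD20, Atp2a1 lies below 0 and Atp2a2 above 0 at all stages, and the symbols for Casq2 1368988_at and Hrc are open.

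More striated fibre markers were called lower than higher in LE/orl, as were more of the listed probe sets, from which the markers come. Of 23 markers tested, the lower calls numbered 9 (GD18), 10 (GD19), 11 (GD20 left) and 12 (GD20 right). The higher calls numbered 2 in the first of these comparisons and 0 in the others. Among listed probe sets with 1 symbol the lower shares were 41.5%, 42.5%, 43.2% and 36.7% in the same order. Their higher shares were 34.6%, 33.3%, 20.5% and 18.8%. Whether the marker counts departed from these shares was not tested. The median difference of the fibre markers was -0.33 at GD18, -0.40 at GD19 and -0.64 at GD20 left. The Sln difference was -2.65, -2.76 and -0.98 at these stages, so the 2 did not follow the same course. The part of muscle content in the lower Atp2a1 and Sln levels was not tested. Of 7 smooth muscle markers 4 were named, and all 4 were lower in LE/orl at GD18, with a median of -1.56. Of 12 myoblast and myogenic regulators 4 were named, of which 2 were higher in LE/orl at GD18 and 3 lower at GD20 left. Neither of these short lists was tested against the shares of the listed probe sets.

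From GD18 to GD20 the store and release genes rose in both strains. In LE/orl all 6 members were called higher at GD20 left than at GD18, against 3.76% of all probe sets called higher and 5.37% of the listed ones, and 6.39% called in either direction. In LE/wt 5 of 6 were called higher, against 24.7% of all probe sets and 33.8% of the listed ones, and 44.7% called in either direction. The median day change was 1.78 in LE/orl and 1.70 in LE/wt, against -0.07 and 0.02 over all probe sets. Of 23 striated fibre markers tested, 16 were called higher in LE/orl and 19 in LE/wt, with 0 lower in either strain. Their medians were 1.24 and 1.58, and the part of muscle content in the members' rise was not tested. These differences use the GD18 and GD20 left arrays of the strain comparisons above, and the LE/wt one was used by the authors for their list.

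Casq2 1368988_at rose 3.87-fold in LE/orl, a day difference of 1.95 ± 0.26 (SE, n = 4 each) with an adjusted p of 2.37e-05, and 2.99-fold in LE/wt, a difference of 1.58 ± 0.26 with an adjusted p of 1.5e-05. Its second probe set rose by 2.24 in LE/orl and by 2.78 in LE/wt. Hrc rose 3.99-fold in LE/orl (2.00 ± 0.27, adjusted p = 2.93e-05) and 3.32-fold in LE/wt (1.73 ± 0.27, adjusted p = 9.02e-06). For both of these luminal proteins the GD18 and GD20 left arrays of a strain did not overlap. Ryr1 rose 3.05-fold in LE/orl (1.61 ± 0.37, adjusted p = 0.00746) and 7.06-fold in LE/wt (2.82 ± 0.37, adjusted p = 8.15e-07). The LE/orl call for Ryr1 was lost with array weights (0.99, adjusted p = 0.0503) and in a fit of the LE/orl groups compared alone (adjusted p = 0.147).

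Both pumps also rose. Atp2a1 rose by 1.41 ± 0.37 in LE/orl (adjusted p = 0.0194) and by 1.83 ± 0.37 in LE/wt (adjusted p = 0.000253), and the LE/orl call was lost without GD18 replicate D (0.056), without GD20 left replicate C (0.0964) and with the compared groups alone (0.0606). Atp2a2 1369065_a_at rose by 1.04 ± 0.25 in LE/orl (adjusted p = 0.008) and by 1.67 ± 0.25 in LE/wt (adjusted p = 3.52e-06), and the LE/orl call was lost without GD18 replicate A (0.76, adjusted p = 0.051) and with the compared groups alone (0.114). The other Atp2a2 probe set was flat, with day differences of 0.20 in LE/orl and 0.06 in LE/wt, neither of them called, and 95% intervals of -0.31 to 0.71 and -0.44 to 0.57. The 2 Atp2a2 probe sets therefore disagreed over time and pointed the same way between the strains.

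Sln had a different course in each strain. In LE/orl it rose by 2.04 ± 0.39 between GD18 and GD20 left (adjusted p = 0.00142), with group means of 6.63, 7.71 and 8.67 at GD18, GD19 and GD20 left. In LE/wt the means were 9.28, 10.47 and 9.65, and the GD20 minus GD18 difference of 0.38 was not called (adjusted p = 0.448, 95% interval -0.41 to 1.17). The GD19 arrays of LE/wt, at 10.00 to 11.07, all lay above those of GD20 left, at 9.16 to 9.96, while the decrease of -0.82 was not called (adjusted p = 0.0931). It was called with array weights (-0.83, adjusted p = 0.0186) and with the compared groups alone (0.0292). The difference between the strains' courses is the change with day tested above.

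**Figure D4:**
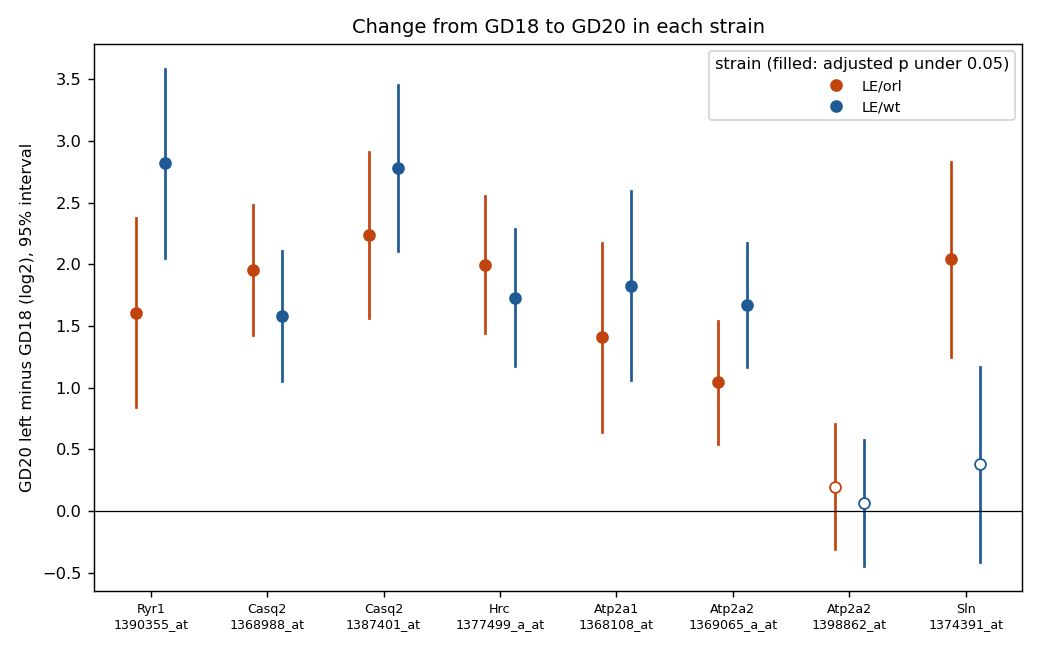
GD20 left minus GD18 difference in log2 level for each probe set, in orange for LE/orl and blue for LE/wt, with its 95% confidence interval from limma. Filled points have an adjusted p under 0.05. All points but those of Atp2a2 1398862_at and of Sln in LE/wt are filled, and the strains' intervals for Sln, 1.25 to 2.83 in LE/orl and -0.41 to 1.17 in LE/wt, do not overlap.

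Single day steps were less certain. With limma 0 of 6 members were called between GD18 and GD19 in LE/orl and 0 of 6 in LE/wt, against 0.101% and 0.237% of all probe sets, and all 6 differences were above 0 in each strain. At an unadjusted p under 0.05, 4 of 6 passed in LE/orl and 6 of 6 in LE/wt. Between GD19 and GD20 left 0 of 6 were called in LE/orl, against 0.0789%, with 5 of 6 at an unadjusted p under 0.05. The share of all probe sets at an unadjusted p under 0.05 was not counted. The unadjusted counts therefore have no background and are not a result about these genes. In LE/wt 4 of 6 were called higher over that step (Ryr1, Casq2, Hrc and Atp2a2), against 21.7% of all probe sets called higher and 39.8% in either direction. Ryr1 rose by 1.34 ± 0.37 over that step in LE/wt (adjusted p = 0.00522) and Hrc by 0.99 ± 0.27 (adjusted p = 0.00458). Casq2 1368988_at rose by 0.70 ± 0.26 (adjusted p = 0.0317), and this was lost with no minimum signal (0.0535), after quantile normalization (0.0624), and without LE/wt GD19 replicate B or D or GD20 left replicate A, B or C (0.067 to 0.0818). Atp2a1 differed by 0.87 over that step and was called without LE/wt GD19 replicate B (adjusted p = 0.0389), not with all arrays (0.0654).

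At GD18 LE/wt males and females differed in 4 of the 6 genes (Hrc and Sln higher and Ryr1 and Atp2a2 lower in males), against 53.1% of all probe sets and 64.9% of the listed ones. Sln was at 9.50, 9.87, 8.85 and 8.89 in males, against 6.80, 8.97, 7.09 and 6.79 in females. The male arrays exceeded 3 of the 4 female arrays, and female replicate B reached into the male range. The limma difference was 1.86 ± 0.39 (3.64-fold higher in males, adjusted p = 0.000192). Casq2 1387401_at was lower in males, with 5.54, 5.88, 5.93 and 5.57 against 6.64, 8.78, 6.59 and 6.65 in females, a difference of -1.43 ± 0.33 with an adjusted p of 0.000569 and no overlap. The other Casq2 probe set differed by -0.22 and was not called (adjusted p = 0.484).

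Ryr1 was lower in males, by a difference of -1.06 ± 0.37 with an adjusted p of 0.0186, at 5.23 to 6.34 in males and 6.14 to 7.57 in females. That call was lost without female replicate A (adjusted p = 0.0833), female replicate B (0.0599) or male replicate A (0.0762). Atp2a2 1369065_a_at was lower by -0.73 in males (adjusted p = 0.0143), or by -0.50 without female replicate B (adjusted p = 0.0902). Hrc was higher by 0.64 in males (adjusted p = 0.0487), a call lost without any of 6 of the 8 arrays (0.0627 to 0.287). Atp2a1 differed by 0.34 and was not called (adjusted p = 0.466). Female replicate B was the highest female array for Casq2, Hrc, Atp2a1, Atp2a2 1369065_a_at and Sln, and its summed striated fibre signal was 74594 against 31331 to 42731 in the other females. The part of muscle content in the sex differences was not tested.

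The sides did not differ detectably. Right minus left at GD20, 0 of 6 members were called in LE/orl and 0 of 6 in LE/wt, as were 0% of all probe sets in each strain, and 0 of 6 had an unadjusted p under 0.05 in limma. For Sln the right minus left difference was -0.38 in LE/orl and -0.01 in LE/wt, with 95% intervals of -1.23 to 0.48 and -0.86 to 0.84. For Casq2 1387401_at it was -0.71 in LE/orl and 0.19 in LE/wt, with intervals of -1.44 to 0.01 and -0.54 to 0.91. With the shared fetus as a replicate block 0 members were called in either strain.

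Over the 9 gubernaculum group means the members fell into patterns that are given as descriptions only, since the groups share day, strain and RNA quality. Pearson's r over the 9 means was 0.93 for Ryr1 and Casq2, 0.92 for Hrc and Atp2a1 and 0.91 for Casq2 and Hrc. Among the pumps and their inhibitor it was 0.78 for Atp2a1 and Sln, 0.36 for Atp2a1 and Atp2a2 and -0.15 for Atp2a2 and Sln. For Ryr1 and Sln it was 0.26, so the 2 lowest of the 15 pairs both held Sln. The probe sets of one gene had r = 0.88 for Casq2 and 0.70 for Atp2a2. Ordered by mean, Sln ran from LE/orl GD18 (6.63) through LE/wt females (7.41), LE/orl GD19 (7.71), LE/orl GD20 right and left (8.29 and 8.67), LE/wt GD18 (9.28) and LE/wt GD20 left and right (both 9.65) to LE/wt GD19 (10.47). Neighbours in this order overlapped, except LE/orl GD20 right above LE/orl GD19 and LE/wt GD19 above LE/wt GD20 left. Atp2a2 1369065_a_at ran from LE/wt GD18 (10.05) to LE/orl GD20 right (12.45), and there LE/orl GD20 left lay clear of the next lower group.

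The 3 named probe sets most like each member over the same 9 means, of 2977, were looked up by Pearson's r. Sln was nearest to Tnni1 (r = 0.98), the troponin I of slow fibres, Art1 (0.98) and Ctsh (0.97). Atp2a1 was nearest to Myoz1 (0.99), a Z-disc protein, and to Actn2 and Myh7 (both 0.98). Hrc was nearest to Pla1a and to Chrna1, a subunit of the muscle acetylcholine receptor (both 0.99), and to Hibadh (0.98). Ryr1 was nearest to Sytl2 (0.98), the embryonic myosin heavy chain Myh3 (0.97) and Atp1b4 (0.97), and Casq2 to the tropomyosin Tpm3 (0.98), Sytl2 (0.98) and Syt17 (0.96). Atp2a2 was nearest to Fgf13, RGD1560397 and LOC360570 (all 0.98).

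Of 69 further genes of calcium handling and excitation-contraction coupling, 21 were named and tested in the gubernaculum. At GD18 5 were higher and 6 lower in LE/orl, against 27.2% and 24.1% of all probe sets, and at GD19 7 were higher and 6 lower, against 26.6% and 25.9%. At GD20 5 were higher and 13 lower on each side, where 20.1% and 26.9% of all probe sets were called for left gubernacula and 18.1% and 20.3% for right ones. Of the listed probe sets with 1 symbol, from which these genes come, 34.6% were called higher and 41.5% lower at GD18. These shares were 33.3% and 42.5% at GD19, 20.5% and 43.2% at GD20 left, and 18.8% and 36.7% at GD20 right. With the index as a covariate 5 of the 21 were called at GD18, 7 at GD19 and 0 on either side at GD20. Of all 8872 probe sets 2692 were called with it at GD18, 2850 at GD19, 46 at GD20 left and 41 at GD20 right. Their median difference was 0.01 at GD18 and -1.02 at GD20 left, against 0.06 and -0.09 over all probe sets. Tmem38a, a cation channel of the sarcoplasmic reticulum that accompanies calcium release, was lower in LE/orl by -1.43 at GD18, -1.31 at GD19, -1.35 at GD20 left and -1.85 at GD20 right. Fkbp1a, which binds and steadies the ryanodine receptor, was lower by -2.19, -2.38 and -2.44 at GD18, GD19 and GD20 left, and S100a1, a calcium sensor that acts on the same channel, by -1.50, -2.03 and -1.02. Stim1, the store calcium sensor, was higher by 1.75, 1.25 and 1.65 at these stages. All these differences were called in limma.

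Several of these genes moved with the RNA index. Fkbp1a was at 7.42 in LE/orl GD18 replicate A, against 5.15 to 5.57 in the other LE/orl arrays of that day and a mean of 8.10 in LE/wt. Averaged over GD18 and GD19 its difference was -2.79 with the weak 5′ arrays of LE/orl alone and -0.78 with the remaining LE/orl arrays alone (adjusted p = 0.00654), and with the index as a covariate it was not called at any stage. Stim1 differed by 1.94 with the weak 5′ arrays alone and by 0.16 with the remaining ones (adjusted p = 0.692), and Tmem38a by -1.67 and by -0.46 (adjusted p = 0.259 for the last). Neither was called at any stage with the covariate. For S100a1 these differences were -1.86 and -1.48 (adjusted p = 2.2e-07 for the last), and it was called with the covariate at GD18 (-1.21) and GD19 (-1.73) and not at GD20. At GD20 strain and index cannot be told apart, and the part of RNA quality in these differences was not tested further.

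Trdn encodes triadin, which ties calsequestrin to the release channel. It did not differ between the strains at GD18 beyond the spread (0.04) and was higher in LE/orl at GD20, by 1.68 in left and 1.35 in right gubernacula. Its strain difference changed with day by 1.64 (adjusted p = 0.00252), but triadin passed the minimum signal only through LE/orl GD20 arrays and had therefore to differ there. Its mean log2 level was 4.34, 4.12 and 5.69 at GD18, GD19 and GD20 left in LE/orl, against 4.29, 4.16 and 4.01 in LE/wt. Calr, the calcium-binding protein of the endoplasmic reticulum, was lower in LE/orl by -1.83 at GD18 and -1.54 at GD20 left. Averaged over GD18 and GD19 it differed by -2.17 with the weak 5′ arrays of LE/orl alone and by -0.17 with the remaining ones (adjusted p = 0.632), and with the covariate it was not called at any stage. Between GD18 and GD20 left 5 of the 21 rose and 1 fell in LE/orl. There 3.76% and 2.63% of all probe sets were called, and 5.37% and 3.42% of the listed ones. In LE/wt 10 rose and 2 fell, against 24.7% and 20% of all probe sets and 33.8% and 27.4% of the listed ones. Among those that rose was Cacna2d1, a subunit of the voltage-gated calcium channel, with 1.48 in LE/wt and 0.41 (not called) in LE/orl.

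In the testis only Atp2a2 reached the minimum for testing, with both probe sets at a log2 level of 5 or more in 20 of 20 arrays. Atp2a2 1369065_a_at was at 5.79, 6.25, 6.13, 6.11 and 6.41 in LE/orl at GD17, against 6.48, 6.53, 6.72, 6.56 and 6.59 in LE/wt. At GD19 it was at 6.32, 6.33, 6.20, 6.17 and 6.03 in LE/orl, against 6.57, 6.54, 6.75, 7.24 and 6.44 in LE/wt. Every LE/orl testis lay below every LE/wt testis of its day. The limma difference was -0.44 ± 0.13 at GD17 (SE, n = 5 each, 1.36-fold lower, adjusted p = 0.0195) and -0.50 ± 0.13 at GD19 (adjusted p = 0.0111), and the share of testis probe sets called was 18.5% and 13.3%. The GD17 call was lost without LE/orl replicate A (-0.35, adjusted p = 0.0586). The direction was opposite to that in the gubernaculum, which was labelled in 2 cycles and the testis in 1, and the difference between the tissues was not tested.

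The second Atp2a2 probe set averaged 5.96 ± 0.29 in LE/orl and 5.88 ± 0.04 in LE/wt at GD17 (SD, n = 5 each), a difference of 0.08 that was not called (adjusted p = 0.644). At GD19 it averaged 5.49 ± 0.14 in LE/orl and 5.85 ± 0.11 in LE/wt, a difference of -0.36 with an adjusted p of 0.0271. That call was lost without LE/wt replicate A or D or without LE/orl replicate C, D or E (adjusted p = 0.052 to 0.0771). It was lower at GD19 than at GD17 in LE/orl by -0.47 (adjusted p = 0.000799, with 55.6% of probe sets called), and by -0.03 in LE/wt, not called, where 41.6% were. The change of the strain difference was -0.44 and missed the threshold (adjusted p = 0.0654), which it passed without LE/orl GD17 replicate D (-0.54, adjusted p = 0.0168) or LE/orl GD19 replicate A (-0.49, adjusted p = 0.0458), and 9.65% of probe sets were called.

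Ryr1, both Casq2 probe sets, Hrc, Atp2a1 and Sln lay at log2 levels of 1.84 to 2.91 in the testes of both strains, apart from LE/wt GD19 replicate D. That testis had 5.12 for Sln against 1.92 to 2.09 in the other LE/wt testes of its day, and 4.67 for Casq2 1368988_at against 2.27 to 2.38. Its summed striated fibre signal was 7261 against 3276 to 4086, so the array that was high in calcium handling genes was also high in fibre markers, and the part of muscle content in its Atp2a2 value of 7.24 was not tested. Without it the GD19 difference of 1369065_a_at was -0.37 and was still called (adjusted p = 0.0283).

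**Figure D5:**
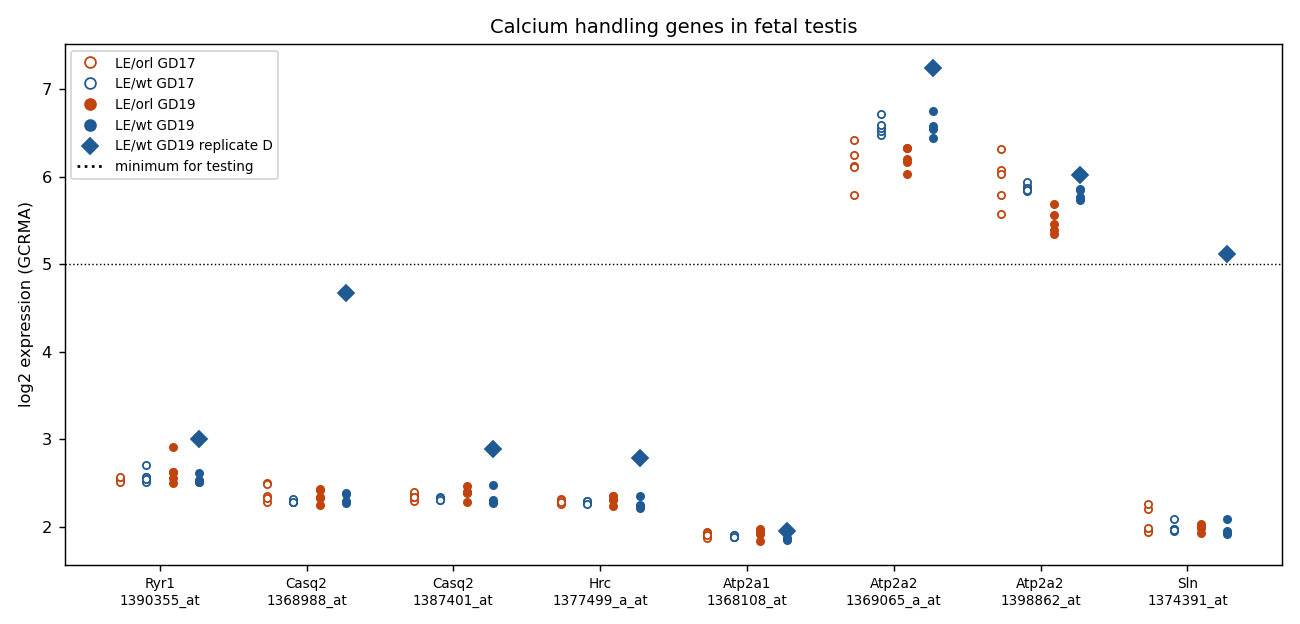
Log2 levels of the 8 probe sets in each testis array, with LE/orl in orange and LE/wt in blue, open circles for GD17 and filled symbols for GD19, and the dotted line at the minimum of 5 used for testing. Only both Atp2a2 probe sets lie above the line in all arrays, and the diamond, LE/wt GD19 replicate D, lies above the other arrays for Casq2 1368988_at (4.67) and Sln (5.12).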

How the data were processed

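Single-colour Affymetrix arrays were hybridised with RNA of 34 gubernaculum samples, labelled in 2 cycles, and 20 testis samples, labelled in 1 cycle, per the labels. The authors deposited expression values on a log2 scale, for which the submitters' processing notes name GCRMA, and lists of the probe sets they selected, with linear intensity means per group. The recomputed intensity means matched the authors' within 0.51 for 3589 of 3589 probe sets, for LE/orl GD18 and GD19 when replicates A and D of these groups were left out. The sources used here do not give which arrays were normalized together. The deposited methods text calls the GD20 LE/orl column wild type, and its values matched the LE/orl arrays.

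Each tissue was fitted apart by lmFit, contrasts.fit and eBayes of limma 3.58.1, run under R 4.3.3, on the log2 values, with all its groups in 1 fit. The 57 control probe sets were left out, and a probe set needed a log2 level of 5 in 3 gubernaculum or 5 testis arrays, which left 8872 and 8013. Adjusted p-values are Benjamini-Hochberg values over all of these in a contrast, called under 0.05. The fit was tested on simulated data. The members, the gene lists and the rule for the genes named were chosen with earlier results of these data known. The rule named every member through every listed probe set with 1 symbol, counted genes by the probe set of the highest gubernaculum mean, and added genes of the fixed lists and, for each member, the named genes most like it over the group means. Gene positions and promoters are those of RefSeq on GRCr8, matched by symbol, for 6 and 5 of the 6 members. The number of arrays limits the precision, and no depth applies to array values. Left and right arrays of a letter at GD20 are paired by fetus, per the labels, and their deviations from the group means correlated at 0.27 to 0.51 in LE/orl and -0.26 to 0.25 in LE/wt. Alternatives were no minimum or a minimum of 7, 1 probe set a gene, quantile normalization, array weights, trended and robust eBayes, the compared groups alone, the index as a covariate, a replicate block, and leaving out arrays. The fits with subsets of LE/orl arrays split by the index, and all index fits of the other calcium genes, were chosen after seeing the data.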

Additional observations from a re-analysis of the deposited data

Results flagged for a closer look

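Of 88 groups of 4 or 5 arrays, 12 held an array that stood apart from the others of its group by Dixon's test, and chance flags about 1 in 20 groups. In testis, LE/wt GD19 replicate D was the highest of its group with 3.00 for Ryr1, 4.67 for Casq2 1368988_at, 2.79 for Hrc and 5.12 for Sln. The LE/wt GD17 testis replicate A was highest for Sln, at 2.09. In the female group replicate B stood apart with 8.78 for Casq2 1387401_at and 8.97 for Sln. Among the LE/wt GD20 left gubernacula replicate D was the lowest for both Casq2 probe sets, with 10.79 for 1368988_at and 8.13 for 1387401_at. Among the LE/orl GD20 left gubernacula replicate B was lowest for Casq2 1368988_at, at 11.19, and replicate C highest for Hrc, at 8.68. The LE/wt GD18 male replicate C was highest for Atp2a2 1398862_at, at 7.83. The strain difference of Sln changed with day in an F test over GD18, GD19 and GD20 left, and its difference at GD20 left minus that at GD18 was 1.66.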

How the results depend on the processing

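Of 1304 results of the 6 genes with 1 array left out, 1232 kept their direction and their side of the threshold, 58 were no longer called and 14 became called. Of 1153 under the other alternatives the numbers were 1072, 38 and 40, and 3 called results changed direction: Atp2a2 1398862_at between the strains at GD19 (-0.11) and Atp2a2 1369065_a_at at GD20 left (-0.0203) with the index as a covariate, and Ryr1 averaged over GD18 and GD19 in the 2 LE/orl arrays with an index near LE/wt (-0.005). The number of the 6 members called between the strains was 1 at GD18, 1 at GD19, 0 at GD20 left, 0 at GD20 right and 1 in the mean over left stages with the index as a covariate. Of all 8872 probe sets 2692, 2850, 46, 41 and 1861 were called in these fits. With array weights the number of members called was 5 at GD18 and 5 at GD20 right, 3 for the change with day, and 3 for LE/wt GD19 minus GD18. Calls over all probe sets rose as well, to 5834, 5324, 3534 and 109, from 4552, 3404, 2370 and 21 without weights. With the compared groups alone the number of members called was 4 at GD20 right and 3 for LE/orl GD20 left minus GD18, beside 3138 and 130 probe sets in all. Without both arrays the authors left out it was 3 for the change with day, and with those LE/orl arrays alone it was 1 of 6 over GD18 and GD19. Of the 21 other calcium genes 5 were called at GD18, 7 at GD19, 0 at GD20 left and 0 at GD20 right with the covariate. Called differences that changed sign with it were Atp2b1 at GD18 (-0.1689) and GD19 (-0.1022) and Stim1 at GD19 (-0.0905). At GD20 they were Calr on the left (0.0130) and Homer1 (0.1291) and Ppp3r1 (0.0255) on the right. The cause was not tested. Leaving out 1 array gave counts of 1 to 2 at GD20 left, 0 to 2 at GD20 right, 0 to 2 for the change with day, 2 to 3 between the sexes and 0 to 1 between the testes at GD17. Letters paired arrays by fetus between the sides alone. Elsewhere, where their deviations correlated at -0.27 to 0.27, the replicate block changed 3 gene calls: Hrc at GD18 (-0.59, adjusted p = 0.0447), Atp2a2 1369065_a_at at GD20 right (0.64, 0.0417) and Ryr1 in the mean over left stages (0.48, 0.0482). It changed no side call. With a minimum log2 level of 7 no testis member was left to test. A low level near background, as for most members in testis, limits what could be measured. The authors' selection of the probe sets on these arrays and an RNA quality that ran with strain limit the strain comparisons in gubernaculum, most at GD20. In testis the index was -1.53 to -0.999 in LE/orl and -1.45 to -1.07 in LE/wt, and the members were not in the authors' testis list.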
